A study of Arabidopsis thaliana with 12 samples.

Results

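The 87 probe sets described here report cytochrome P450s, UDP-glycosyltransferases (UGTs) and beta-glucosidases (BGLUs) of Arabidopsis thaliana, 1 probe set for each of 87 genes. They were chosen by name, by a rule that uses no measured value, but with earlier results of these data known. The annotation had to give a probe set a single gene. The symbol of that gene had to be CYP followed by its family code, or UGT or BGLU followed by a number. Of the UGTs, 2 (UGT74B1 and UGT78D2) were left out. The members are 45 UGTs, 22 P450s and 20 BGLUs among 22746 probe sets tested, and 18 of the 22 P450s belong to the CYP71B subfamily. The annotation gives a single gene to 13513 probe sets, so each family is covered in part. The probe set names mark 0 of the 87 as shared between transcripts of different genes.

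Cytochrome P450s are membrane-bound oxygenases that add oxygen to hormones, phenolics, terpenes and fatty acids, often as an early step of plant secondary metabolism. UGTs transfer a sugar to such small molecules, which usually makes them soluble, less active and fit for storage in the vacuole. Beta-glucosidases remove the sugar again and release the active compound, so the families stand at opposite ends of storage and release.

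Whole seedlings of the pft1-1 mutant, which affects the MED25 subunit of the Mediator complex, and of wild type (WT) were compared at 23C and at 16C. The groups were pft1-1 at 23C, WT at 23C, pft1-1 at 16C and WT at 16C, each with 3 biological replicates labelled A, B and C. All seedlings were 10 days old, of the Columbia background, and were raised on MS salts agar in continuous fluorescent light of 80 micromoles per second and square metre. RNA was prepared separately for each of the 12 samples and measured on 1-colour Affymetrix arrays. The mutant is a single line, so an effect of PFT1 and any other difference between the lines cannot be told apart. PFT1 itself has no named probe set, so its level could not be read here. In whole seedlings, fewer cells of a type and less RNA per cell cannot be told apart.

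All values are log2 expression as the authors deposited it, already normalised and with 1 value for each probe set on each array. Array medians lay between 5.08 and 5.26, and 25% of all values lay under 2.52, which serves here as a mark of the background. The 4 arrays labelled C stood apart in control probe sets that are no members: spike-in controls averaged 4.84 to 9.51 there, against 2.45 to 2.54 on the 8 arrays labelled A and B, and the 3' minus 5' difference of control transcripts was 3.52 to 4.53, against 2.64 to 3.07. Each group has 1 such array. The number of arrays limits the precision: the standard error of a difference between groups had a median of 0.23 over the members. Calls rest on limma, with 4 group means fitted over the 12 arrays, and require a p-value under 0.05 after Benjamini-Hochberg adjustment for all 22746 tests.

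Members differed widely in level and in spread. The group mean lay at or above the background mark in all groups for 63 members, in some but not all for 10, and below it in every group for 14, of which 6 were P450s, 4 UGTs and 4 BGLUs. For these 14, which include the CYP71B members CYP71B21, CYP71B22 and CYP71B27, a difference between groups may not be visible. The same holds for members just above the mark in every group. Examples are BGLU24 (group means 2.64 to 2.74), BGLU43 (2.57 to 2.67) and CYP71B25 (2.55 to 2.64). The SD within groups had a median of 0.30 over the members, against 0.25 over all probe sets. It was highest for UGT73C1 (1.15), a cytokinin and xenobiotic glucosyltransferase, and for BGLU33 (0.95), which frees abscisic acid from its glucose ester.

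The arrays of UGT73C1 show this spread. It reached 5.2, 5.74 and 6.45 in pft1-1 at 23C (replicates A, B and C), against 7.52, 5.07 and 4.44 in WT at 23C. At 16C it was 4.67, 4.29 and 4.05 in pft1-1, against 6.52, 3.83 and 4.17 in WT. Replicate A was far above the other replicates in WT at both temperatures. In pft1-1 it was the lowest at 23C and the highest at 16C, there by a smaller step. Replicate A was highest in both WT groups for 20 of the 87 members (23.0%), against 13.1% of all probe sets. That count was made after the values had been seen, and its part in the genotype comparisons was not tested.

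The question of the temperature comparison is how seedlings grown at 23C differ from those grown at 16C in each genotype. All seedlings were 10 days old, so temperature and any difference in developmental stage cannot be told apart. In both genotypes BGLU15 and UGT76B1 fell at 23C, while UGT84A3, UGT85A5, CYP71B24 and CYP71B5 rose. BGLU15, a glucosidase that acts on flavonol glycosides, had the largest difference of all 87 members, at 10.3-fold lower at 23C in pft1-1 and 8.57-fold lower in WT. In pft1-1 another 10 members passed the test, among them the monolignol glucosyltransferase UGT72E2 and the coumarin glucosidase BGLU42, both lower at 23C. The P450s that passed, 4 of 22 in pft1-1 and 2 of 22 in WT, were CYP71B members higher at 23C. CYP71B members make up 18 of those 22.

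In pft1-1, 16 of 87 members (18.4%) were called between 23C and 16C, against 17.7% of all probe sets. Of these, 7 were higher at 23C and 9 lower, where 8.41% of all probe sets were higher and 9.27% lower. In WT, 6 members (6.90%) were called, 4 higher and 2 lower, against 4.89% of all probe sets, 1.74% higher and 3.15% lower. In pft1-1 the share of members called is close to the background, and in WT it exceeds it by under 2 genes in 87. The groups did not overlap for 45 members in pft1-1 (51.7%, against 47.9% of all probe sets), with 32 higher at 23C and 13 lower, where 32.0% and 15.9% of all probe sets were so. In WT they did not overlap for 31 members (35.6%, against 26.0% of all probe sets), with 17 higher and 14 lower, where 15.3% and 10.7% of all probe sets were so. Some of these members lay below the background mark with differences near 0, such as UGT71B5, at 0.04 in pft1-1 and 0.01 in WT. The median difference of the members was 0.05 in pft1-1 and 0.03 in WT, beside 0.04 and 0.02 for all probe sets.

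When each array was centred on its own median, the median difference of all probe sets in pft1-1 shifted to 0.144, against 0.043 as deposited, and the calls became 13 higher and 7 lower in place of 7 and 9. In WT they became 6 higher and 2 lower in place of 4 and 2. Differences below are on the deposited scale. With the replicate letter as a block, 13 of the calls in pft1-1 were kept and 2 were added. In WT all 6 were kept and 2 were added. The counts also depend on single arrays. In pft1-1 there were 9 calls without pft1-1 16C replicate A, 10 without pft1-1 23C replicate A and 9 with letters A and B alone. In WT there were 2 without WT 23C replicate A, 3 without WT 16C replicate C, 2 with letters A and B alone and 23 with array quality weights, whose estimate stopped before it converged. The shares of all probe sets called under these alternatives are not given here. Nothing particular to the members is therefore read from these counts. The calls that held without any single array were that of BGLU15 in WT and those of BGLU15, UGT76B1, UGT72E2, BGLU25, BGLU42, UGT84A3, UGT85A5 and CYP71B24 in pft1-1.

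BGLU15 (AT2G44450) was the clearest case. Its values were 2.77, 3.14 and 3.22 in pft1-1 at 23C, against 6.57, 6.42 and 6.24 in pft1-1 at 16C. In WT they were 3.14, 3.65 and 3.64 at 23C, against 6.46, 6.48 and 6.80 at 16C. The arrays of the cooler seedlings all lay far above those of the warmer ones, with no overlap in either genotype. The difference was -3.36 in pft1-1 (SE 0.18, limma adjusted p = 3.39e-05) and -3.10 in WT (SE 0.18, adjusted p = 4.4e-05). It held without any single array and with letters A and B alone, at -3.54 in pft1-1 and -3.07 in WT.

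UGT76B1 (AT3G11340), which puts glucose on salicylic acid, isoleucic acid and N-hydroxypipecolic acid, also fell at 23C. It stood at 3.56, 3.43 and 3.39 in pft1-1 at 23C, against 6.63, 5.90 and 6.18 in pft1-1 at 16C. In WT it stood at 4.03, 3.28 and 2.82 at 23C, against 5.80, 4.84 and 5.12 at 16C. Both pairs of groups were apart, and the 16C arrays of pft1-1 all lay above those of WT. The difference was -2.78 in pft1-1 (SE 0.34, adjusted p = 0.0014) and -1.88 in WT (SE 0.34, adjusted p = 0.0178).

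UGT84A3 (AT4G15490), which makes glucose esters of sinapate and other hydroxycinnamates, rose at 23C. Its values were 8.22, 8.45 and 8.63 in pft1-1 at 23C, against 6.78, 6.79 and 6.39 in pft1-1 at 16C. In WT they were 8.46, 8.39 and 7.42 at 23C, against 6.64, 5.66 and 6.75 at 16C. The groups did not overlap, though replicate C of WT at 23C came close to the 16C arrays. The difference was 1.78 in pft1-1 (SE 0.34, adjusted p = 0.00906) and 1.74 in WT (SE 0.34, adjusted p = 0.0261).

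UGT85A5 (AT1G22370) rose at 23C as well. It was at 5.4, 5.61 and 6.30 in pft1-1 at 23C, against 3.97, 3.90 and 3.67 in pft1-1 at 16C. In WT it was at 6.09, 5.19 and 5.77 at 23C, against 3.75, 4.41 and 3.85 at 16C. All warm arrays lay above all cool ones. The difference was 1.93 in pft1-1 (SE 0.29, adjusted p = 0.00346) and 1.68 in WT (SE 0.29, adjusted p = 0.0164).

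**Figure D1:**
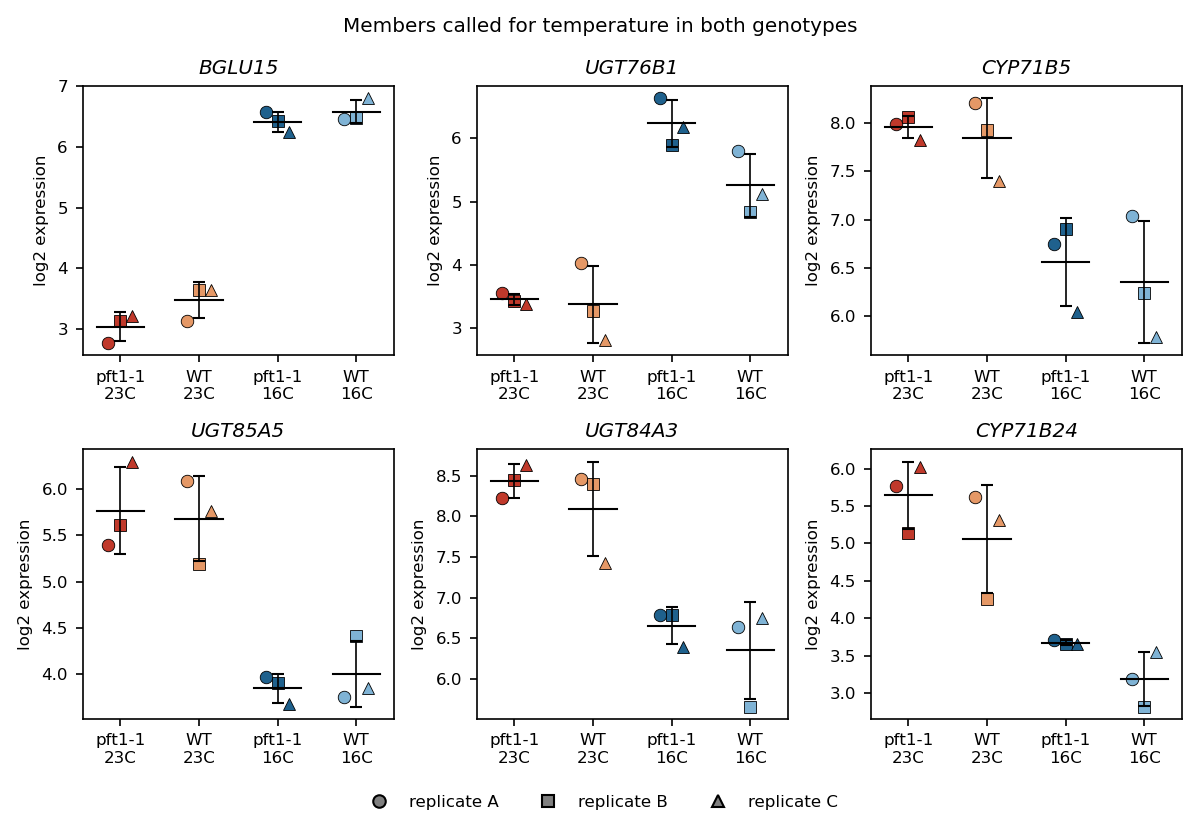
Log2 expression (vertical axis) of the 6 members called between 23C and 16C in both genotypes, by group (horizontal axis), with 1 symbol per array for replicates A, B and C, and the mean and SD of the 3 arrays as bars. BGLU15 and UGT76B1 lie lower in both 23C groups and the other 4 lie higher, with no overlap between temperatures within a genotype.

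Of the P450s, CYP71B24 (AT3G26230) and CYP71B5 (AT3G53280) rose in both genotypes. CYP71B24 had 5.76, 5.14 and 6.02 in pft1-1 at 23C, against 3.71, 3.65 and 3.66 in pft1-1 at 16C. In WT it had 5.62, 4.25 and 5.31 at 23C, against 3.19, 2.82 and 3.55 at 16C. The 16C arrays of pft1-1 lay close together, and those of WT at 23C were spread over more than 1 log2 unit. The difference was 1.97 in pft1-1 (SE 0.36, adjusted p = 0.00688) and 1.87 in WT (SE 0.36, adjusted p = 0.0225).

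CYP71B5 had 7.99, 8.06 and 7.83 in pft1-1 at 23C, against 6.75, 6.90 and 6.05 in pft1-1 at 16C. In WT it had 8.21, 7.93 and 7.40 at 23C, against 7.04, 6.24 and 5.79 at 16C. The groups were apart in both genotypes, by the least margin in WT. The difference was 1.39 in pft1-1 (SE 0.34, adjusted p = 0.0239) and 1.49 in WT (SE 0.34, adjusted p = 0.0432). The call in WT was lost in 9 of the 12 fits that left out 1 array, with an adjusted p of up to 0.144 (without WT 16C replicate B), and with renewed quantile normalisation (adjusted p = 0.056).

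CYP71B28 (AT1G13090) and CYP71B26 (AT3G26290) rose in pft1-1, by 1.12 (SE 0.26, adjusted p = 0.0185) and 0.75 (SE 0.18, adjusted p = 0.0221). CYP71B28 had 7.58, 7.18 and 7.69 in pft1-1 at 23C, against 5.96, 6.59 and 6.52 in pft1-1 at 16C. CYP71B26 had 8.82, 8.61 and 8.31 in pft1-1 at 23C, against 7.98, 7.80 and 7.71 in pft1-1 at 16C. Neither overlapped between temperatures, in pft1-1 or in WT. In WT their differences were 0.96 (adjusted p = 0.0734) and 0.63 (adjusted p = 0.0884), and CYP71B28 passed there with the replicate letter as a block (adjusted p = 0.0423). Among all 18 CYP71B members the difference was positive for 14 in pft1-1 and 17 in WT, with medians of 0.24 and 0.21, while it was positive for 62.9% of all probe sets in pft1-1 and 63.7% in WT. These counts include members below the background mark, such as CYP71B21, CYP71B22 and CYP71B27, whose differences were near 0. CYP71B37 was negative in both, at -0.62 in pft1-1 (adjusted p = 0.197) and -0.65 in WT (adjusted p = 0.305). The substrates of the 4 CYP71B enzymes that rose are not given here. The same subfamily holds CYP71B6, which oxidises indole-3-acetonitrile, at -0.03 in pft1-1 and 0.34 in WT.

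**Figure D2:**
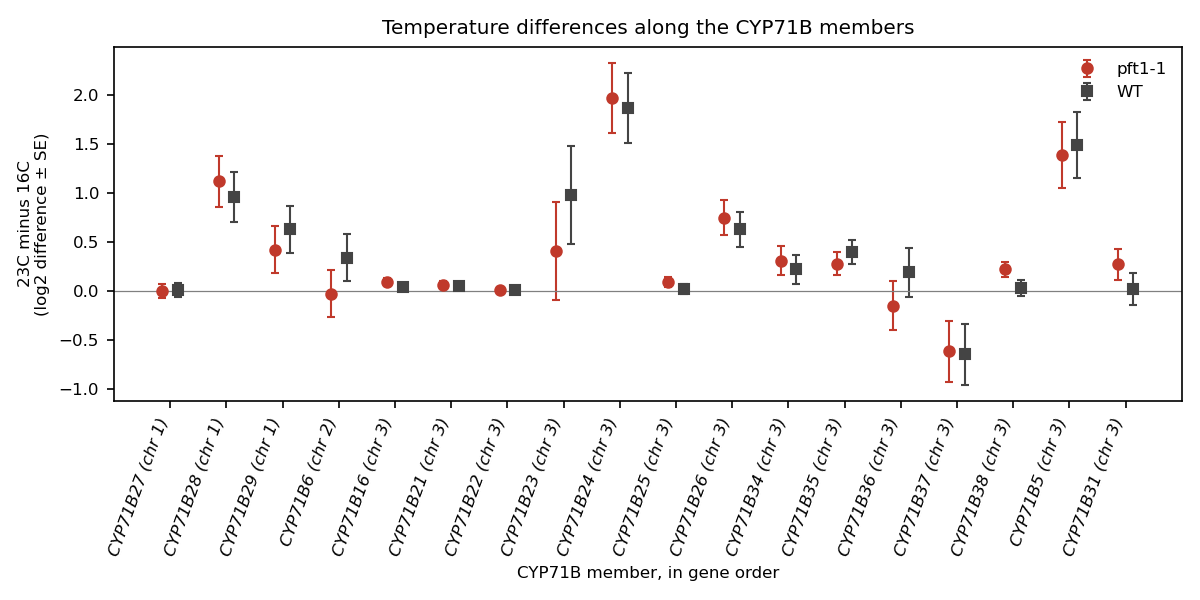
Difference between 23C and 16C (log2, vertical axis, with its standard error) for the 18 CYP71B members in the order of their genes along the chromosomes (horizontal axis), circles for pft1-1 and squares for WT. CYP71B28, CYP71B24, CYP71B26 and CYP71B5 stand above most of their neighbours in both genotypes.

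The other 7 members that fell at 23C in pft1-1 were UGT71C1, UGT72E2, BGLU25, BGLU42, UGT84A4, UGT76C2 and UGT72B3. UGT72E2 (AT5G66690), which glucosylates the lignin precursors coniferyl and sinapyl alcohol, had 4.88, 5.16 and 4.73 in pft1-1 at 23C, against 7.96, 7.43 and 6.33 in pft1-1 at 16C. In WT it had 4.75, 6.32 and 6.31 at 23C, against 7.31, 7.71 and 7.31 at 16C. The temperatures were apart in both genotypes, with replicate A of WT at 23C as low as the pft1-1 arrays. The difference was -2.32 in pft1-1 (SE 0.49, adjusted p = 0.0128) and -1.65 in WT (SE 0.49, adjusted p = 0.0968).

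UGT71C1 (AT2G29750), which glucosylates hydroxycinnamates and coumarins in vitro, had 2.44, 3.11 and 3.16 in pft1-1 at 23C, against 5.89, 6.35 and 3.88 in pft1-1 at 16C. In WT it had 2.55, 2.45 and 2.56 at 23C, against 5.09, 4.21 and 4.26 at 16C. It was near the background mark at 23C, and the difference was -2.47 in pft1-1 (SE 0.56, adjusted p = 0.0174) and -2.0 in WT (SE 0.56, adjusted p = 0.0834). Replicate C of pft1-1 at 16C lay far below the other replicates, although still above every 23C array.

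BGLU42 (AT5G36890), a root glucosidase that frees the iron-mobilising coumarin scopoletin from its glucoside, had 5.91, 6.76 and 5.44 in pft1-1 at 23C, against 7.35, 7.38 and 7.40 in pft1-1 at 16C. In WT it had 6.28, 6.59 and 6.59 at 23C, against 6.82, 7.24 and 7.06 at 16C. Neither genotype overlapped, and the spread in pft1-1 lay at 23C. The difference was -1.34 in pft1-1 (SE 0.28, adjusted p = 0.0127) and -0.55 in WT (SE 0.28, adjusted p = 0.346). BGLU25 (AT3G03640) differed by -1.66 in pft1-1 (SE 0.30, adjusted p = 0.00708) and by -0.88 in WT (SE 0.30, adjusted p = 0.15), where it passed with the replicate letter as a block (adjusted p = 0.0385).

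The remaining calls in pft1-1 were small or close to the threshold. UGT76C2 (AT5G05860), which inactivates cytokinins by N-glucosylation, was 5.89, 6.14 and 5.85 in pft1-1 at 23C, against 6.67, 6.66 and 6.32 in pft1-1 at 16C, a difference of -0.59 (SE 0.14, adjusted p = 0.0188). UGT72B3 differed by -0.53 (SE 0.15, adjusted p = 0.0398). UGT87A2, which has been linked to flowering time in Arabidopsis, differed by 1.27 (SE 0.35, adjusted p = 0.0345), and its groups overlapped in WT. UGT84A4 had 2.32, 2.13 and 2.99 in pft1-1 at 23C, against 4.24, 3.67 and 2.93 in pft1-1 at 16C, so its groups overlapped, and it differed by -1.13 (SE 0.34, adjusted p = 0.0484). Its mean in pft1-1 at 23C, 2.48, lay below the background mark, so the size of that difference is uncertain. With the replicate letter as a block the adjusted p was 0.0611 for UGT72B3, 0.0502 for UGT87A2 and 0.0596 for UGT84A4. In WT these 4 differed by -0.21, -0.36, 0.96 and -0.99, in the order named, with adjusted p between 0.149 and 0.515.

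**Figure D3:**
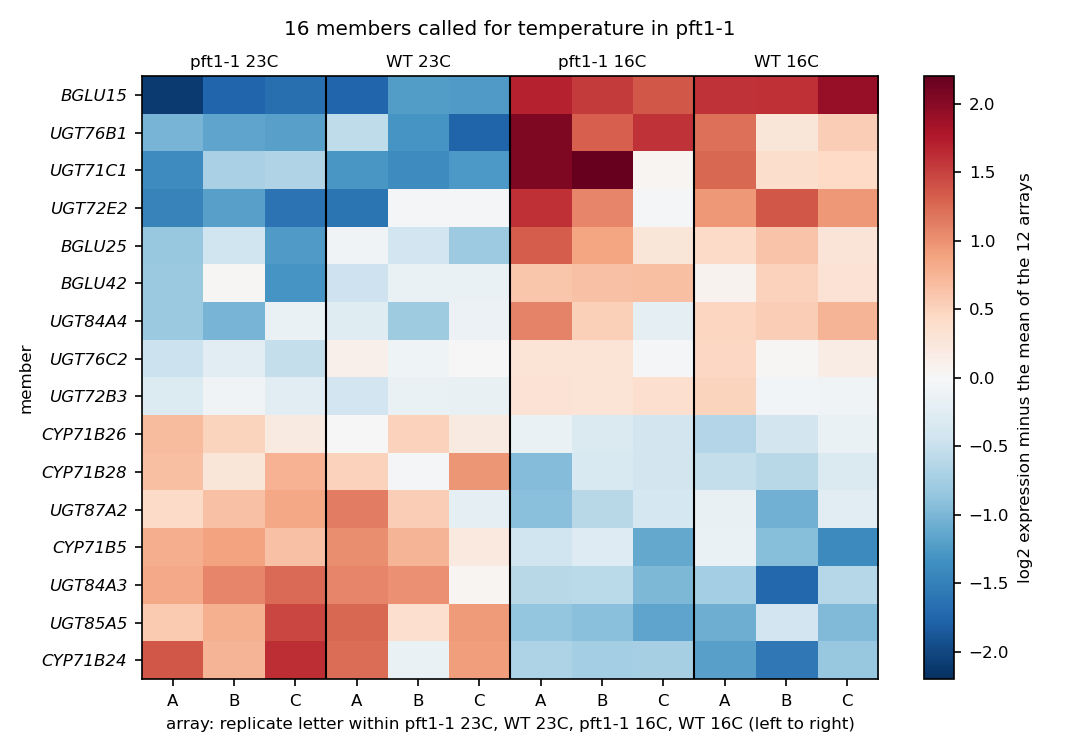
Log2 expression minus the mean of the 12 arrays (colour) for the 16 members called between 23C and 16C in pft1-1 (vertical axis), on each array (horizontal axis), grouped as pft1-1 23C, WT 23C, pft1-1 16C and WT 16C with replicates A, B and C. The upper 9 members are lower at 23C in pft1-1 and the lower 7 higher, and the WT columns mostly show the same colours, often in paler shades.

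All 6 members called in WT were among the 16 called in pft1-1, which is the whole of the WT calls and 37.5% of the pft1-1 calls, and each had the same sign in both. Over all probe sets, 85.5% of the WT calls were also called in pft1-1, and 23.6% of the pft1-1 calls in WT. All 16 had the same sign in WT, and for 14 the WT groups did not overlap, in the same direction. The matching shares over all probe sets called in pft1-1 are not given, so this agreement is not read as particular to the members. The 2 temperature comparisons share no array. Over all 87 members their differences had the same sign for 73, with a Pearson r of 0.88 and a Spearman rho of 0.77, against an r of 0.84 over all probe sets. These are descriptions over genes measured on the same 12 arrays. The groups did not overlap in the same direction in both genotypes for 19 members (21.8%, 10 higher at 23C and 9 lower), against 17.3% of all probe sets. UGT71B5 and BGLU32, below the background mark in every group, are among the 19.

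The larger number of calls in pft1-1 does not show that the genotypes respond differently. The interaction of genotype and temperature, which is the difference between the 2 temperature differences, was called for 0 members by limma, as for 0.00% of all probe sets. It had an unadjusted p under 0.05 for 1 member, against 5.54% of all probe sets. That member was BGLU28, at -1.44 (SE 0.63, adjusted p = 0.892). The other large values were -1.56 for BGLU33 (SE 1.04), -1.46 for BGLU47 (SE 0.77) and -0.90 for UGT76B1 (SE 0.47), each with adjusted p = 0.947. The 95% interval of the interaction reached 1 log2 unit or more from 0 for 41 of the 87 members.

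**Figure D4:**
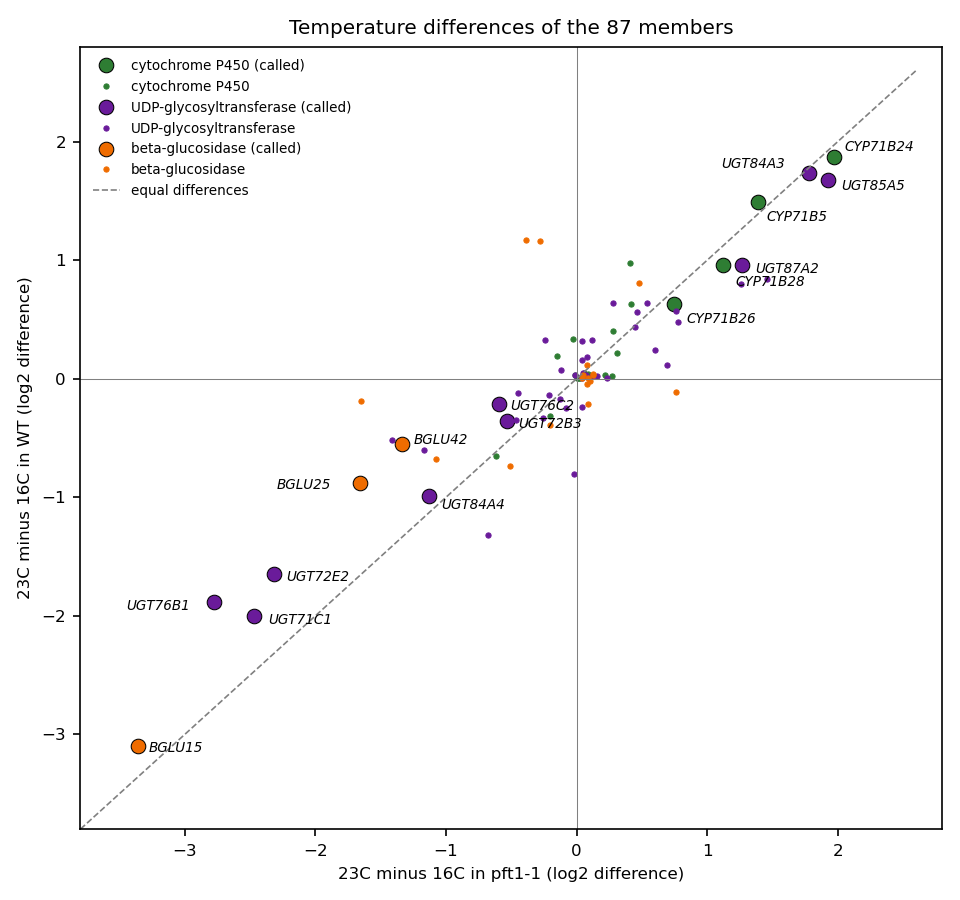
Difference between 23C and 16C (log2) in pft1-1 (horizontal axis) against the same in WT (vertical axis) for the 87 members, coloured by family, with the 16 called members large and named. Points lie along the dashed line of equal differences (Pearson r 0.88, a description), with BGLU15 at the lower left end.

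By function, the list with the most measured members was that of phenylpropanoids, lignin and coumarins, with 12 of its 21 genes. In pft1-1, 1 of the 12 rose (UGT84A3) and 4 fell (UGT71C1, UGT72E2, BGLU42 and UGT84A4), and in WT 1 rose (UGT84A3) and 0 fell. That is 41.7% called in pft1-1, against 17.7% of all probe sets, and 8.33% in WT, against 4.89%, and nothing particular to so short a list is read from it. The difference was negative for 8 of the 12 in pft1-1 and for 10 in WT, with a median of -0.33 in each, beside medians near 0 for all probe sets. Over all probe sets it was positive for 62.9% in pft1-1 and 63.7% in WT. Nothing particular to the list is read from these signs either. The monolignol glucosidases BGLU45 and BGLU46 and their relative BGLU47, which are on the list, differed by 0.09, 0.76 and -1.65 in pft1-1, and BGLU47 missed the threshold (adjusted p = 0.0678).

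The salicylate list had 4 members, of which UGT76B1 fell in both genotypes. UGT71C3, a methyl salicylate glucosyltransferase, differed by -0.68 in pft1-1 (adjusted p = 0.193) and -1.32 in WT (adjusted p = 0.0583), with no overlap in either. Of 3 flavonoid members BGLU15 fell, and the flavonol rhamnosyltransferase UGT78D1 differed by -1.41 in pft1-1 (adjusted p = 0.122) and -0.52 in WT (adjusted p = 0.742). Of 3 cytokinin members UGT76C2 fell in pft1-1, whereas its neighbour UGT76C1, with the same activity, was at 0.76 in pft1-1 (adjusted p = 0.0782) and 0.57 in WT (adjusted p = 0.284). With the replicate letter as a block it passed in pft1-1 (adjusted p = 0.0198), as did UGT88A1 at 0.45 (adjusted p = 0.0472, and 0.0677 without the block).

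Among 5 members named for xenobiotics and stress, UGT85A5 rose and UGT73B4 differed by -1.17 in pft1-1 (adjusted p = 0.0634). UGT73C1 differed by 1.46 in pft1-1, without overlap (limma adjusted p = 0.282), and by 0.84 in WT. UGT73B5 and UGT73D1 differed by 0.54 and -0.01 in pft1-1. The lists for abscisic acid (3 members), jasmonate (4), camalexin and glucosinolates (3), auxin (2), sterols (2), terpenes (1) and the CYP78A family (1) had 0 calls in either genotype. The jasmonate list holds UGT76E1, UGT76E2, UGT76E11 and UGT76E12, whose differences ran from -0.24 to 1.26 in pft1-1 and from 0.03 to 0.80 in WT. UGT71C5, which conjugates abscisic acid, was just outside the threshold in pft1-1 at 0.60 (adjusted p = 0.0507). No member was on the lists for gibberellin or for cutin, suberin and wax.

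By family, 3 of 45 UGTs rose and 6 fell in pft1-1, and 2 rose and 1 fell in WT. Of 20 BGLUs, 0 rose and 3 fell in pft1-1, and 0 rose and 1 fell in WT. In pft1-1 the called shares were 20% of UGTs, 15% of BGLUs and 18.2% of P450s, near the 17.7% of all probe sets. In WT they were 6.67%, 5.0% and 9.09%, beside 4.89% of all probe sets, on 3, 1 and 2 calls. The BGLU with the highest positive difference in WT among those without overlap was BGLU40, at 0.81 (adjusted p = 0.128), with 0.48 in pft1-1 (adjusted p = 0.245). BGLU44, a beta-mannosidase, was at -1.08 in pft1-1 (adjusted p = 0.0917) and -0.68 in WT (adjusted p = 0.425), with no overlap in either genotype. Its arrays in pft1-1 at 23C were 10.54, 10.73 and 8.92, so replicate C carried much of the difference there.

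Few genes of the connected pathways were named on the array. Of 3 other phenylpropanoid genes, CCR2, a cinnamoyl-CoA reductase, fell at 23C in pft1-1 by 1.42 on the log2 scale (adjusted p = 0.034), while 0 rose. CCR2 differed by -1.14 in WT (adjusted p = 0.145). Its 23C means, 2.78 in pft1-1 and 2.58 in WT, were near the background mark. HCT and ALDH2C4 differed by 0.05 and 0.06 in pft1-1. Of 2 jasmonate synthesis genes, OPCL1, a peroxisomal CoA ligase, fell in pft1-1 by 1.2 (adjusted p = 0.00623). It differed by 0.15 in WT (adjusted p = 0.821). Its interaction of genotype and temperature was not called (-1.35, SE 0.3, limma adjusted p = 0.551). The other, JMT, differed by -0.06 in pft1-1. Of 6 genes for the ER body and its glucosidase partners, JAL34 fell in pft1-1 by 0.98 (adjusted p = 0.0172). It differed by -0.87 in WT (adjusted p = 0.06). In pft1-1 JAL22 and JAL33 differed by 0.35 and 0.31, and NAI1 and NAI2 by -0.03 and -0.43. JAL23 lay below the background mark. The same lists had 0 calls in WT. Beside their calls in pft1-1 stand 17.7% of all probe sets called there, and nothing is read from lists this short.

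Tissue markers were checked beside these differences. The 5 measured markers of green tissue averaged 13.65 to 13.71 in pft1-1 at 23C, 13.57 to 13.80 in WT at 23C, 13.61 to 13.85 in pft1-1 at 16C and 13.65 to 13.85 in WT at 16C. Of 37 root markers 2 were measured, the root hair expansins EXPA7 and EXPA18. Their mean was 2.18 to 2.44 in pft1-1 at 23C and 2.15 to 2.21 in WT at 23C, at the background, against 2.31 to 5.35 in pft1-1 at 16C and 2.75 to 5.42 in WT at 16C. The 2 expansins were not called in either genotype, and their part in the lower values of root-expressed members such as BGLU42 at 23C was not tested. None of 10 floral markers had a named probe set.

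The families lie in tandem arrays, and 55 of the 87 members stood in 21 clusters with at most 3 genes between neighbours. The clusters described here hold a called member and were picked after their values were seen. On chromosome 2, BGLU15 at -3.36 in pft1-1 stood beside BGLU28 at -0.28 and BGLU29 at 0.13. In WT BGLU28 was at 1.16 (limma adjusted p = 0.196), opposite in sign to BGLU15. The values of the clusters that follow are those of pft1-1. On chromosome 4, UGT84A3 at 1.78 stood between UGT84A1 at -0.02 and UGT84A4 at -1.13. On chromosome 1, UGT85A5 at 1.93 stood among UGT85A7, UGT85A2 and UGT85A3, at 0.12, -0.26 and 0.23. On chromosome 2, UGT71C1 at -2.47 stood beside UGT71C2 at -0.13, and on chromosome 3 CYP71B24 at 1.97 ended a cluster of CYP71B21, CYP71B22 and CYP71B23, at 0.06, 0.01 and 0.41. BGLU29, UGT71C2, UGT85A3, CYP71B21 and CYP71B22 were below or near the background mark, where a change could be missed.

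The genotype comparison asks whether these enzymes differ between pft1-1 and WT at the same temperature. By limma 0 of the 87 members were called at 23C, 0 at 16C and 0 over both temperatures. Very few probe sets were called at all: 0.0220% at 23C (0.00440% higher in pft1-1 and 0.0176% lower), 0.0352% at 16C (0.0176% in each direction) and 0.0572% over both (0.00440% higher and 0.0528% lower). At an unadjusted p under 0.05 there were 3 members at 23C, 5 at 16C and 6 over both (3.45%, 5.75% and 6.90%), against 7.60%, 4.62% and 6.24% of all probe sets. The lowest unadjusted p among the members was that of BGLU28, at 23C.

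BGLU28 (AT2G44460), an atypical myrosinase that breaks down glucosinolates when sulfur is scarce, had 2.74, 2.61 and 2.58 in pft1-1 at 23C, against 5.35, 3.32 and 4.42 in WT at 23C. At 16C it had 3.51, 2.72 and 2.55 in pft1-1, against 3.15, 3.05 and 3.41 in WT. The pft1-1 arrays at 23C were near the background mark, below every WT array, and the WT arrays were widely spread. At 16C the genotypes overlapped. The difference was -1.72 at 23C (SE 0.44, 95% interval -2.72 to -0.71, adjusted p = 0.418) and -0.27 at 16C.

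Other members without overlap at 23C were BGLU47 at -1.18 (SE 0.55, adjusted p = 0.681), BGLU19 at -0.73 (SE 0.47), UGT76C2 at -0.42 (SE 0.14, adjusted p = 0.525), CYP71B36 at -0.33, CYP78A9 at -0.03 and UGT85A2 at 0.63. With BGLU28 that makes 7 of 87 (8.05%), against 7.95% of all probe sets. UGT76C2 stood at 5.89, 6.14 and 5.85 in pft1-1 at 23C, against 6.48, 6.28 and 6.37 in WT at 23C. Its groups were narrow and a small step apart, and at 16C the difference was -0.03. BGLU47 stood at 2.71, 3.26 and 3.33 in pft1-1 at 23C, against 3.45, 3.69 and 5.69 in WT at 23C, with replicate C of WT far above its other replicates.

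At 16C the genotypes did not overlap for 16 members (18.4%), against 12.8% of all probe sets. UGT76B1 had the largest of these differences, at 0.98 (SE 0.34, 95% interval 0.23 to 1.74, adjusted p = 0.835), with 6.63, 5.90 and 6.18 in pft1-1 against 5.80, 4.84 and 5.12 in WT. The monolignol glucosidase BGLU46 was at 3.87, 4.0 and 4.13 in pft1-1, against 5.46, 4.77 and 4.56 in WT, a difference of -0.93 (SE 0.46). Its relative BGLU45 differed by -0.60 (SE 0.24) and the hydroxycinnamate glucosyltransferase UGT84A1 by -0.74 (SE 0.25, adjusted p = 0.819). CYP71B24 differed by 0.49, UGT76E11 by 0.43, CYP71B6 by 0.42, BGLU42 by 0.34 and BGLU44 by 0.30. UGT76E12 differed by -0.28. BGLU24 and BGLU43 differed by -0.10 each, UGT73C2 by -0.08, CYP71B16 by -0.06, BGLU36 by -0.03 and BGLU31 by -0.02. From BGLU24 on, these members had 16C group means between 2.42 and 2.90, near the background mark. The count of 16 thus includes very small steps at low signal, and nothing particular to the members is read from it. Members whose groups overlapped at 16C reached 0.85 for UGT71C1 and 0.81 for UGT73B4, and -0.96 for BGLU19. The 95% interval of the genotype difference lay within 1 log2 unit of 0 for 63 members at 23C and 61 at 16C, and reached beyond it for 24 members at 23C and 26 at 16C.

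**Figure D5:**
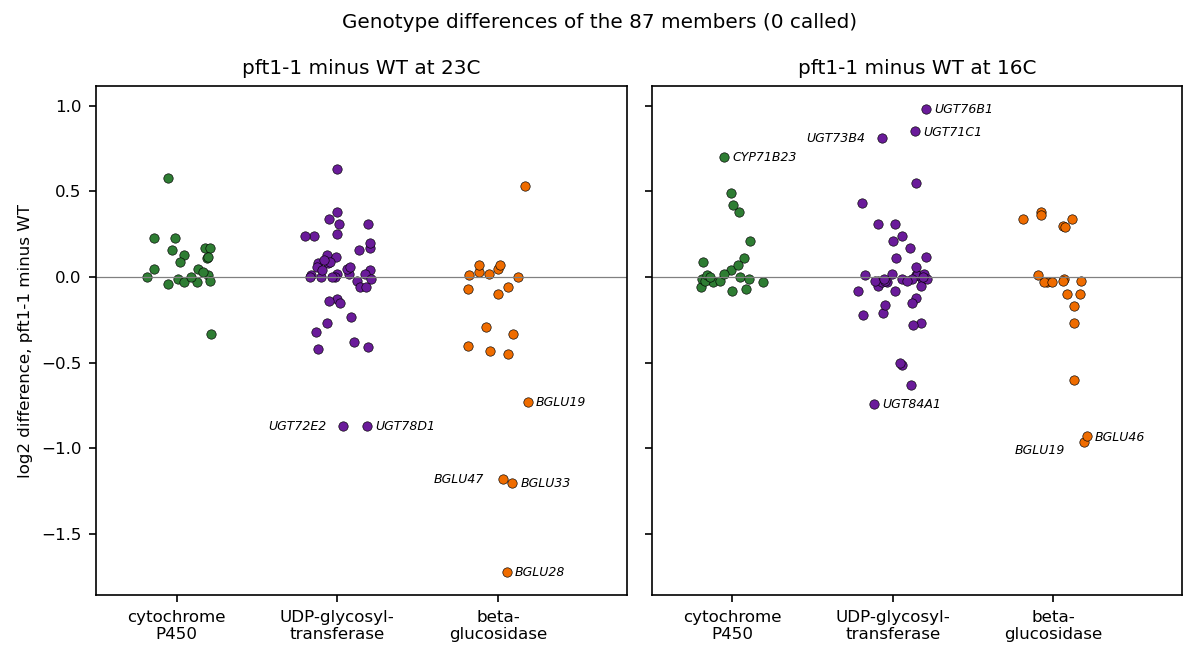
Difference of pft1-1 minus WT (log2, vertical axis) for each member at 23C (left) and 16C (right), by family (horizontal axis, points spread sideways at random), with members of at least 0.7 in size named. BGLU28 lies lowest at 23C and UGT76B1 highest at 16C, and 0 points passed the test.

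The genotype differences at the 2 temperatures, which rest on different arrays, bore little relation to each other over the members. They had the same sign for 43 of 87, with a Pearson r of 0.23 as a description. The matching values over all probe sets are not given, so this is not read as particular to the members. No member was without overlap in the same direction at both temperatures, against 0.668% of all probe sets.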

How the data were processed

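Total RNA (5 ug per sample) from whole seedlings was hybridised to 12 arrays, 3 for each of 4 groups. The deposited values are log2 expression per probe set, normalised and summarised by the authors. RMA and affy appear in the submitters' processing notes, with no version. The probe definition used is not stated there. Of 22810 probe sets 64 controls were set aside, and 22746 were tested without a filter. The annotation gives 1 gene to 13513 of these, several to 503 and none to 8730. Symbols were matched by Entrez identifier to a RefSeq gene table (assembly TAIR10.1), which served only for names and gene order, pseudogenes included. 87 of 87 members matched. No 2 arrays held the same values (0 pairs).

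limma 3.58.1 (lmFit, eBayes) under R 4.3.3 fitted 1 mean per group with no covariate (8 residual and 1.05 prior degrees of freedom). There were 6 comparisons: genotype (pft1-1 minus WT) at each temperature and over both, temperature (23C minus 16C) in each genotype, and the interaction. p-values were adjusted by Benjamini-Hochberg over all probe sets, and SE is the moderated standard error. The fit was tested on simulated data. Alternatives changed the blocks, arrays, weights, variance model, normalisation, filter, threshold or probe sets per gene, or left out 1 array. Python 3.11.15 with pandas 2.3.3, numpy 2.4.6 and matplotlib 3.10.9 made the summaries and plots. Replicates come from separately prepared RNA, and nothing says whether plates were shared.

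Members with any call were named, with up to 6 of the largest differences in each direction without overlap in each simple comparison, the 4 largest interaction values, and up to 4 of each function list. UGT71B5, UGT71C2, UGT73C2, UGT85A3, UGT85A7, UGT88A1, BGLU29, BGLU31, BGLU32, BGLU36, CYP71B16, CYP71B21, CYP71B22, CYP71B23, CYP71B27 and CYP71B37 were named after their values were seen. The members and lists were chosen with earlier results of these data known. Lists for brassinosteroid, cutin and cytokinin genes outside these families, electron donors of P450s, and glutathione and vacuolar transport had 0 measured genes. Letters were taken as possible pairs where every same-letter correlation of deviations from the group means is over 0.1. It was 0.129 to 0.473 between genotypes at 23C, 0.274 to 0.529 between temperatures in WT and 0.196 to 0.339 in pft1-1. Between genotypes at 16C the lowest was -0.101, so the letters are not taken as pairs there. Correlations between different letters were not computed, so this cut cannot settle whether the letters pair. The calls rest on the fit without a block, and changes with the replicate letter as a block are given beside them.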

Additional observations from a re-analysis of the deposited data

How the results depend on the processing

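The 12 alternatives besides single left-out arrays left the genotype and interaction counts at 0 members wherever they were run, as did leaving out each array in turn. A fit on only the arrays compared gives nothing new for the comparison over both temperatures or the interaction, which need all groups, and the filter on the upper 60% by mean removed UGT71C1 and UGT84A4. With the replicate letter as a block, 8 members were called between temperatures in WT against 6 without it (6 shared, with BGLU25 and CYP71B28 added), and 15 in pft1-1 against 16 (13 shared, with UGT76C1 and UGT88A1 added and UGT84A4, UGT72B3 and UGT87A2 lost). It changed no other call. The 6 calls in WT became 1 at an adjusted p under 0.01, 23 with array quality weights, 2 with letters A and B alone and 2 with only the arrays compared. Leaving out 1 array gave 2 to 8 calls in WT, with 2 without WT 23C replicate A and 3 without WT 16C replicate C. The 16 calls in pft1-1 became 6 at an adjusted p under 0.01 and 9 with letters A and B alone (7 shared). Leaving out 1 array gave 9 to 17, with 9 without pft1-1 16C replicate A and 10 without pft1-1 23C replicate A. A stricter threshold makes fewer calls by construction. For the other changes the cause was not tested, and the estimation of the array weights stopped before it converged. With renewed quantile normalisation the call of CYP71B5 in WT was lost (adjusted p = 0.056). With letter C as a block the counts were 8 in WT and 17 in pft1-1. Shares of all probe sets called are not given for the alternatives, so nothing particular to the members is read from the changed counts. No called difference changed sign in any setting. Of the 22 calls followed, 9 held without any single array (1 of 6 in WT, that of BGLU15, and 8 of 16 in pft1-1) and 5 in every setting. The highest adjusted p with 1 array left out was 0.144 for CYP71B5 in WT (without WT 16C replicate B), 0.0897 for UGT84A3 in WT (without WT 23C replicate A), 0.0879 for CYP71B24 in WT (without WT 16C replicate B), 0.0621 for UGT85A5 in WT (without WT 16C replicate C) and 0.0545 for UGT76B1 in WT (without WT 23C replicate B). In pft1-1 it was 0.145 for UGT84A4, 0.112 for UGT87A2, 0.0688 for UGT76C2, 0.0645 for CYP71B28 and 0.0639 for UGT71C1, each without pft1-1 16C replicate A, 0.12 for UGT72B3 and 0.0782 for CYP71B26, each without pft1-1 23C replicate A, and 0.0705 for CYP71B5 without pft1-1 16C replicate C. Signal over background limits the 14 members below the background mark in every group, and also members just above it, such as BGLU24, BGLU43 and CYP71B25.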
